A study of Mus musculus with 120 samples.

Results

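The acyl-CoA thioesterases Acot1 to Acot6 form a run of adjacent genes on mouse chromosome 12, in the order Acot2, Acot1, Acot4, Acot3, Acot5, Acot6 from the centromere, and their transcripts were followed in liver across 30 inbred strains. The members were all probe sets annotated to 1 of these 6 gene symbols, which gave 6 of the 18193 genes named by the annotation and 9 of the 45037 probe sets of the array. 5 of the 9 passed the filter on low signal, which asked that at least 2 of the 60 males lie above 7.4166, the median of all deposited values, and they belong to Acot1, Acot2, Acot3, Acot4 and Acot6. The only probe set of Acot5 and the weaker probe sets of Acot2, Acot4 and Acot6 did not pass. A further probe set, 1422997_s_at, is annotated to both Acot2 and Acot1 and was kept apart.

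Livers came from 10-week-old males after 4 h without food. MSM is an inbred strain of Japanese wild origin. B6-Chr12CMSM and B6-Chr12TMSM are consomic strains that carry the centromeric (C) or the telomeric (T) part of MSM chromosome 12 on the C57BL/6J background, with boundaries that the labels do not give. A further 26 consomic strains carry another chromosome of MSM, a part of one, or its mitochondria on that background, and C57BL/6J (B6) is the control strain. No animal was treated, each strain was represented by 2 males, and 2 arrays of each male were averaged, with the animal number in the labels read as the male. The number of males, 2 per strain, limits the precision throughout, and the p-values measure the spread between these males.

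Acyl-CoA thioesterases split activated fatty acids into the free acid and coenzyme A, and so run against the acyl-CoA synthetases. The 6 clustered genes encode close relatives that differ in where they work: Acot1 is cytosolic, Acot2 mitochondrial, and Acot3 to Acot6 are peroxisomal or assigned to peroxisomes. In mouse liver the family is known as a set of targets of PPARA, the nuclear receptor that is active in fasting, and it is induced by fasting and by fibrates.

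The starts of 5 of the 6 genes were found in the RefSeq promoter table (GRCm38.p6), with none listed for Acot6. The 4 windows below run from 250 bases before to 50 bases after the start, 5′ to 3′, and are shown because these are the adjacent genes with a tested probe set and a listed start. They set a called member beside its uncalled neighbours in the reference sequence. No MSM sequence was available, so they say nothing about the difference between strains. Capitals mark AGGTCA, the core hexamer bound by PPARA and other nuclear receptors, or its reverse complement.
Acot2 (chr12:83987611-83987910, plus strand): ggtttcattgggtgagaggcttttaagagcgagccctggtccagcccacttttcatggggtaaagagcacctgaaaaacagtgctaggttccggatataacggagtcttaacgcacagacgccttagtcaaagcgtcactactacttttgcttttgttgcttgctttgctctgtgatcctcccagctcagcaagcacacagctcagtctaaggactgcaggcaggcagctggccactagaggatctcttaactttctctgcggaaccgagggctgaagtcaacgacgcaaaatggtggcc
Acot1 (chr12:84009252-84009551, plus strand): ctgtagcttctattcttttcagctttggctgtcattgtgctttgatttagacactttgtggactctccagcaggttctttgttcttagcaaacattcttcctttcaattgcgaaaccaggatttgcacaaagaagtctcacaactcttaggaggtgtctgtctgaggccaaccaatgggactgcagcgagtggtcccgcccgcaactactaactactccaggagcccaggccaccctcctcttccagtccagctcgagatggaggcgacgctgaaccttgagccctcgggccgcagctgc
Acot4 (chr12:84038129-84038428, plus strand): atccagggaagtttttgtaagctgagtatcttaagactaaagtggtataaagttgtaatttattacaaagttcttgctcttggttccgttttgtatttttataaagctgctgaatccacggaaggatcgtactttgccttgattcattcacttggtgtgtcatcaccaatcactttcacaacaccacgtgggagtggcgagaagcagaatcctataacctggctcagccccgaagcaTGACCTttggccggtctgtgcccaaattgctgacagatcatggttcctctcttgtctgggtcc
Acot3 (chr12:84051894-84052193, plus strand): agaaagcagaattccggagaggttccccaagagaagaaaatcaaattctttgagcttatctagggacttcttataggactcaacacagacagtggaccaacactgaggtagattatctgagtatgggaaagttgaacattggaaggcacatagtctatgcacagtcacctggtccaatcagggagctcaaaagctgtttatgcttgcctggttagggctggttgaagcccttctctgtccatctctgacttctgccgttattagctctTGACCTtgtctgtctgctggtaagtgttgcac

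The hexamer began 13 bases before the start in the Acot4 window and 18 bases after it in the Acot3 window, both times on the minus strand, and these letters were not in the Acot2 or Acot1 window. Acot5 had 2 matches. The hexamer was in 16.3% of the 32851 promoters of the table, so a match in 3 of 5 windows is a description only. The direct repeat AGGTCANAGGTCA, searched on both strands, was in none of the 5 windows and in 0.0396% of all promoters, and its looser form AGGNCANAGGNCA was in none of the 5 and in 0.381%. CCAAT on either strand was in all 5 windows, against 37.4% of all promoters.

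Hepatocyte transcripts were at the top of the scale in every male. Alb stood at 14.800, Apoa1 at 14.731 and Cps1 at 13.806, and the values of all 60 males were equal to 3 decimals. Of the markers of tissues outside the liver, 3 of 4 kidney genes (Umod, Slc34a1 and Slc12a1), 2 of 3 adipocyte genes (Adipoq and Lep) and 2 of 5 muscle genes (Actn3 and Myh4) lay below the median of all values. Kap at 7.641, Fabp4, which read 8.256 in MSM and 8.265 in B6, and the muscle genes Ckm, Tnni2 and Mb at 7.575, 7.522 and 7.692 lay above it. The deposited numbers are log2 signals whose deviations between arrays are strongly shrunk: over the tested probe sets, males of 1 strain had a median residual SD of 6.5e-05. Each difference below is in deposited log2 units with its standard error (SE). It is no fold change, and it is divided by the residual SD of its probe set where sizes of different genes are compared. Array medians lay between 7.416 and 7.417. In bulk liver, fewer cells of a type and less RNA per cell cannot be told apart.

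Liver signal differed widely within the cluster. The brightest probe set was the one shared by Acot2 and Acot1, at a mean log2 signal of 9.24, higher than that of 91.92% of probe sets. The probe sets specific to Acot1, Acot2 and Acot4 averaged 8.88, 8.36 and 7.73, those of Acot3 and Acot6 7.45 and 7.43, and the weaker ones of Acot6, Acot4 and Acot2 7.31, 7.19 and 7.18. Acot5 was at 6.68, lower than nearly all probe sets of the array, with a percentile of 2.516. These levels place each probe set on the scale of the array and do not rank the transcripts, since probe sets respond differently. The suffix of the Acot3 probe set marks a design that can match several related transcripts, and for none of the signals was a contribution of close relatives in the cluster tested.

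Acot4, which in mouse encodes the peroxisomal thioesterase for succinyl-CoA and other short dicarboxylic acyl-CoA esters, followed the telomeric part of chromosome 12. Its probe set 1422076_at read 7.7562 and 7.7637 in the MSM males and 7.7652 and 7.7691 in the B6-Chr12TMSM males. It read 7.7348 and 7.7317 in the B6-Chr12CMSM males and 7.7362 and 7.7302 in the B6 males. Both MSM males and both B6-Chr12TMSM males lay above every other male of the panel, and the B6-Chr12CMSM and B6 males overlapped.

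**Figure D1:**
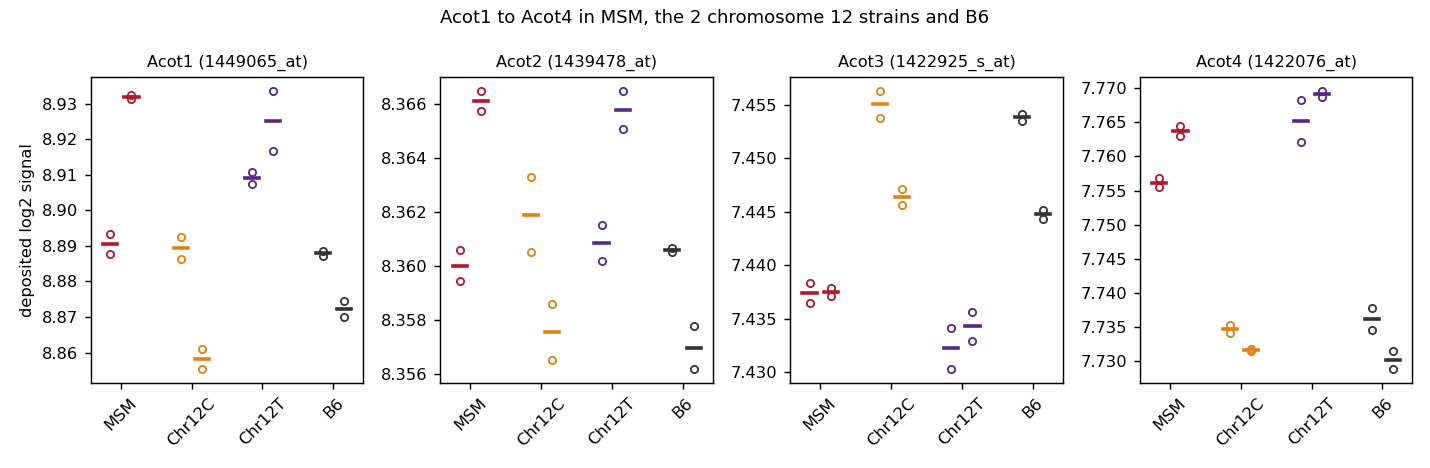
Deposited log2 signal of Acot1, Acot2, Acot3 and Acot4 in MSM, B6-Chr12CMSM (Chr12C), B6-Chr12TMSM (Chr12T) and B6. Open points are single arrays, grouped by male, and bars are the means of the 2 arrays of a male; each panel has its own axis, which does not start at 0. The MSM and Chr12T males are above the Chr12C and B6 males for Acot4 and below them for Acot3, while for Acot1 both Chr12T males lie above all Chr12C and B6 males, and for Acot2 1 Chr12C male lies above 1 Chr12T male.

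Acot4 rose in B6-Chr12TMSM against B6 by 0.0340 ± 0.0038 (SE, n = 2 males each), which is 8.89 residual SD (limma, adjusted p = 1.46e-06). It was the 1 of 5 tested member probe sets called in that comparison, where 22 of all 19429 probe sets, 0.113%, were called at an adjusted p below 0.05. In B6-Chr12CMSM against B6 its difference was 2.84e-05, with a 95% interval of -0.0077 to 0.00775, and 0 of the 5 were called by limma (0 at an unadjusted p below 0.05 as well), where 0.0772% of all probe sets were called. B6-Chr12CMSM set directly against B6-Chr12TMSM gave -0.0339 ± 0.0038 for Acot4 (limma, adjusted p = 1.27e-06), again the 1 member called, against a background of 0.196%. With only MSM, the 2 chromosome 12 strains and B6 in the fit, which leaves fewer males to estimate the spread, the differences were the same but the adjusted p was 0.180 in B6-Chr12TMSM against B6 and 0.224 between the part strains.

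The parental difference in Acot4 had the same direction. It rose in MSM against B6 by 0.0268 ± 0.0038 (limma, adjusted p = 2.84e-06), and it was the 1 of 5 members called, where 23.4% of all probe sets were called, so that a count of 1 is no sign of a cluster that differs more than other genes. Of those calls 2609 were higher and 1933 lower in MSM. After quantile normalization of the deposited values 15892 were higher and 566 lower, with a median shift of 5.9 residual SD over all probe sets, so the direction of a small MSM difference depends on the scaling. The Acot4 difference was then 0.0275 in MSM against B6 and 0.0340 in B6-Chr12TMSM against B6, both still called. MSM minus B6-Chr12CMSM was 0.0267 ± 0.0038 (limma, adjusted p = 2.98e-06). MSM minus B6-Chr12TMSM was -0.0072 ± 0.0038, with both MSM males below both B6-Chr12TMSM males and an adjusted p of 0.178 (limma), and its 95% interval ran from -0.0149 to 0.000519. With all arrays in the fit and the male as a random block, that adjusted p was 0.0314 (limma). This fit sets 1 array correlation of 0.307 for all probe sets. For Acot4 the SD between the arrays of a male was 0.0018, against 0.0038 between males of a strain. The arrays of a male were thus more alike than the fit assumes, and its p-value is too small.

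Over all 30 strains Acot4 fell into 2 separated levels. B6-Chr12TMSM averaged 7.7672 ± 0.0028 and MSM 7.7600 ± 0.0054 (SD, n = 2 each), and the next strain, B6-Chr7TMSM, averaged 7.7399 ± 0.0066. The gap of 0.02009 between MSM and B6-Chr7TMSM was the widest in the order of strain means and the only 1 of 29 gaps between neighbours in that order that exceeded the 95% interval of a difference. From B6-Chr7TMSM down to B6-Chr7CMSM, at 7.7271 ± 0.00069, no gap did so. The 27 strains without MSM chromosome 12 had a lowest male of 7.7233, a median of 7.7314 and a highest of 7.7446. Against the mean of these 27 strains, B6-Chr12TMSM stood 0.0352 ± 0.0027 higher (limma, adjusted p = 2.04e-10) and MSM 0.0280 ± 0.0027 higher (adjusted p = 1.05e-09), while B6-Chr12CMSM was 0.00129 ± 0.0027 higher (adjusted p = 0.997). With that reference 1, 3 and 0 of the 5 members were called in B6-Chr12TMSM, MSM and B6-Chr12CMSM, where 0.283%, 42% and 0.103% of all probe sets were called.

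**Figure D2:**
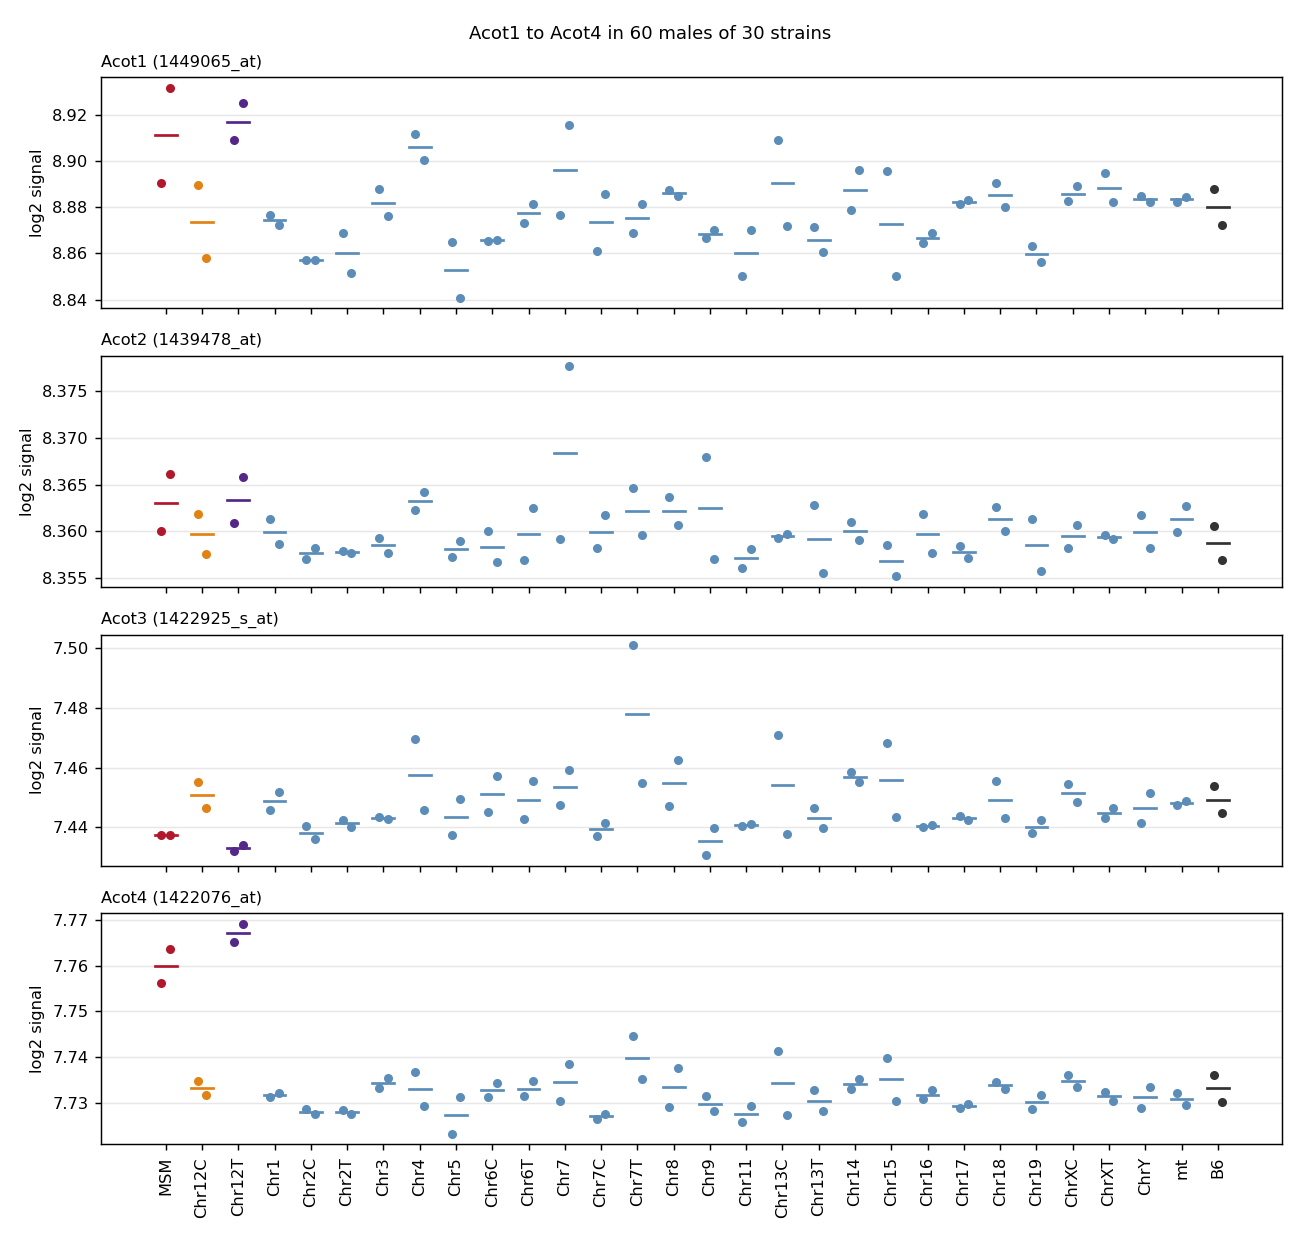
Deposited log2 signal of Acot1, Acot2, Acot3 and Acot4 in the 60 males of the 30 strains, with MSM and the 2 chromosome 12 strains at the left and B6 at the right. Points are males (means of 2 arrays), bars are strain means, strain names are shortened to the MSM chromosome, and each axis has its own range and does not start at 0. For Acot4 the MSM and Chr12T males stand alone above all others; for Acot3 and Acot2 single males of Chr7T and Chr7 are the highest.

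The second Acot4 probe set, 1422077_at, lay below the filter in all 60 males. It read 7.1892 and 7.1894 in MSM, 7.1894 and 7.1895 in B6-Chr12TMSM, 7.1894 and 7.1893 in B6-Chr12CMSM and 7.1894 and 7.1892 in B6, and the groups overlapped. In a fit without the filter its B6-Chr12TMSM minus B6 difference was 0.000144 ± 0.0000997 (limma, adjusted p = 0.99988, where 0.0973% of probe sets were called). The Acot4 result thus rests on 1 of the 2 probe sets of the gene. No probe sequences were available, so whether MSM sequence alters probe binding, here or for the other probe sets, was not tested.

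Acot3, whose peroxisomal enzyme acts on long-chain acyl-CoA in the mouse, lies next to Acot4 and was not called with it. Its probe set read 7.4374 and 7.4375 in the MSM males, 7.4322 and 7.4343 in the B6-Chr12TMSM males, 7.4550 and 7.4463 in the B6-Chr12CMSM males and 7.4538 and 7.4447 in the B6 males. MSM and B6-Chr12TMSM males were thus below all B6-Chr12CMSM and B6 males, the reverse of the order seen for Acot4. None of these differences passed the test: B6-Chr12TMSM minus B6 was -0.0160 ± 0.0098 (limma, unadjusted p = 0.114, adjusted p = 0.99995) and MSM minus B6 was -0.0118 ± 0.0098 (adjusted p = 0.409). B6-Chr12TMSM was the lowest of the 30 strains at 7.4333 ± 0.0014 and MSM the third lowest at 7.4375, with B6-Chr9MSM between them at 7.4354 ± 0.0065, and these 3 did not differ beyond their spread.

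At the other end of the order stood B6-Chr7TMSM, whose males read 7.5009 and 7.4549 for Acot3. 1 of these males was the highest of all 60 and the other lay among the males of other strains. The strain exceeded B6 by 0.0286 ± 0.0098 (limma, adjusted p = 0.375) and the mean of the other strains without MSM chromosome 12 by 0.0309 ± 0.0071 (adjusted p = 0.0246). Its gap of 0.0202 to the next strain, B6-Chr4MSM, was the only 1 of 29 to exceed the 95% interval of a difference. This strain was singled out after its values were seen. Acot4 was also highest in it among the 27 strains, at 7.7446 and 7.7352 in its males, with a difference from the other strains of 0.00824 ± 0.0027 (adjusted p = 0.295).

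Across the 27 strains without MSM chromosome 12, the strain means of Acot3 and Acot4 had a Pearson r of 0.847 and a Spearman rho of 0.793, and r was 0.766 without the 2 strains farthest from the median. Over all 30 strains r was -0.096 and rho 0.470, and r was 0.847 without the 2 strains farthest from the median of Acot4, so the value over 30 rests on those 2. The points share arrays, so the values are a description. MSM and B6-Chr12TMSM departed from the common line, with Acot4 high and Acot3 low, and B6-Chr12CMSM, which is not among the 27, lay beside B6.

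**Figure D3:**
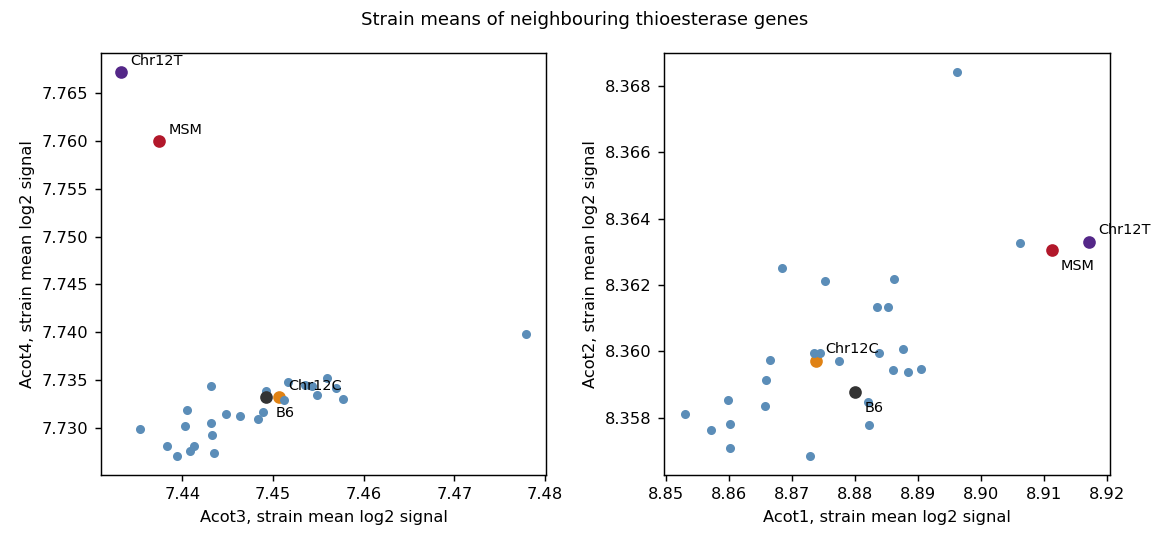
Strain means of log2 signal for Acot4 against Acot3 (left) and for Acot2 against Acot1 (right), 1 point per strain (n = 30), with MSM, Chr12C, Chr12T and B6 labelled. Chr12T and MSM lie apart at the upper left for Acot3 and Acot4, and within the spread of the other strains for Acot2 while at the high end for Acot1.

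Acot1, the cytosolic long-chain acyl-CoA thioesterase, was high in the same strains as Acot4 but with wide spread between males. It read 8.8905 and 8.9319 in MSM, 8.9091 and 8.9252 in B6-Chr12TMSM, 8.8895 and 8.8581 in B6-Chr12CMSM and 8.8879 and 8.8721 in B6. All 4 MSM and B6-Chr12TMSM males lay above all 4 B6-Chr12CMSM and B6 males, and the lower MSM male did so by a small margin. B6-Chr12TMSM minus B6 was 0.0371 ± 0.0137 (limma, unadjusted p = 0.0107, adjusted p = 0.837), and its 95% interval ran from 0.00926 to 0.065. MSM minus B6 was 0.0312 ± 0.0137 (adjusted p = 0.0965).

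Acot1 was called in MSM against B6-Chr12CMSM, at 0.0374 ± 0.0137 (limma, adjusted p = 0.0474), which with Acot4 made 2 of 5 members called where 22% of all probe sets were. That call was lost without MSM male 2 (adjusted p = 0.564) and without B6-Chr12CMSM male 2 (adjusted p = 0.390). It was also lost without the filter (0.0611), with 4 strains (0.223) and with the first array of each male alone (0.140). Against the mean of the 27 strains Acot1 stood 0.0346 ± 0.0098 higher in MSM (limma, adjusted p = 0.00568) and 0.0406 ± 0.0098 higher in B6-Chr12TMSM (adjusted p = 0.0758). MSM and B6-Chr12TMSM differed by -0.00595 ± 0.0137 (adjusted p = 0.794). With all arrays and the male as a random block, the adjusted p was 0.00302 in MSM and 0.0146 in B6-Chr12TMSM, each against B6 (limma). For Acot1 the SD between the arrays of a male was 0.0038, against 0.0138 between males of a strain. The arrays of a male were thus more alike than the correlation of 0.307 in that fit, and these 2 p-values are too small.

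The order of Acot1 over the panel was continuous. B6-Chr12TMSM led at 8.9172 ± 0.0114, followed by MSM at 8.9112 ± 0.0293, B6-Chr4MSM at 8.9062 ± 0.0079 and B6-Chr7MSM at 8.8961 ± 0.0275 (SD, n = 2 each). B6 was fifteenth at 8.8800 ± 0.0112, and B6-Chr5MSM was last at 8.8529 ± 0.0172. None of the 29 gaps between neighbours exceeded even the standard error of a difference, 0.0137. B6-Chr4MSM, with males at 8.9118 and 8.9006, stood 0.0307 ± 0.0098 above the other strains without MSM chromosome 12 (limma, adjusted p = 0.185).

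The probe set shared by Acot2 and Acot1 followed Acot1 closely, with an r of 0.99 over the 30 strain means against 0.65 with the Acot2 probe set. It read 9.2501 and 9.2862 in MSM, 9.2633 and 9.2780 in B6-Chr12TMSM, 9.2466 and 9.2232 in B6-Chr12CMSM and 9.2424 and 9.2267 in B6. In a fit over all probe sets whatever their annotation, MSM stood 0.0336 ± 0.0109 above B6 (limma, adjusted p = 0.0246, where 22.8% of probe sets were called). B6-Chr12TMSM stood 0.0361 ± 0.0109 above B6 (unadjusted p = 0.00247, adjusted p = 0.485, where 0.0976% were called), and 0.0350 ± 0.00787 above the mean of the 27 strains (adjusted p = 0.0443, where 0.253% were called). From this probe set alone, Acot1 and Acot2 cannot be told apart.

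Acot2, the mitochondrial member, showed no call in its specific probe set 1439478_at. It read 8.3600 and 8.3661 in MSM, 8.3608 and 8.3658 in B6-Chr12TMSM, 8.3619 and 8.3575 in B6-Chr12CMSM and 8.3606 and 8.3570 in B6. MSM minus B6 was 0.00427 ± 0.00366 (limma, adjusted p = 0.424) and B6-Chr12TMSM minus B6 0.00453 ± 0.00366 (adjusted p = 0.99995), with 95% intervals of -0.0032 to 0.0117 and -0.00294 to 0.0120. The strain with the highest Acot2 mean was B6-Chr7MSM, whose males read 8.3591 and 8.3777, and 1 of them was the highest of the panel. It differed from B6 by 0.00963 ± 0.00366 (adjusted p = 0.166). B6-Chr15MSM was lowest at 8.3569 ± 0.0024, and none of the 29 gaps between neighbouring strains exceeded the 95% interval of a difference. The correlation of the strain means of Acot1 and Acot2 was 0.65 over 30 strains and 0.59 over the 27.

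The weaker Acot2 probe set, 1422996_at, was below the filter in all 60 males. It read 7.17929 and 7.17954 in MSM, 7.17931 and 7.17940 in B6-Chr12TMSM, 7.17909 and 7.17913 in B6-Chr12CMSM and 7.17915 and 7.17910 in B6, so that all MSM and B6-Chr12TMSM males lay above all B6-Chr12CMSM and B6 males. In the fit without the filter MSM stood 0.00029 ± 0.0000864 above B6 (limma, adjusted p = 0.0178, where 17.9% of probe sets were called), and B6-Chr12TMSM 0.000226 ± 0.0000864 above B6 (unadjusted p = 0.0137, adjusted p = 0.99988).

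Acot6, whose mouse enzyme acts on branched-chain acyl-CoA in peroxisomes, had 1 probe set at the middle of the scale with almost no spread. 1428803_at ranged from 7.428719 to 7.428801 over all 60 males. MSM exceeded B6-Chr12TMSM by 5.46e-05 ± 1.27e-05 (limma, adjusted p = 0.00199), the 1 member called there, where 21.9% of all probe sets were called. It was higher in MSM than in the 27 other strains by 3.82e-05 ± 9.16e-06 (adjusted p = 0.00133). For this probe set the SD between the 2 arrays of a male, 1.68e-05, was larger than that between males, 1.23e-05, and the call against B6-Chr12TMSM was lost with the first array of each male alone (adjusted p = 0.317). B6-Chr12TMSM minus B6 was -3.99e-05 ± 1.27e-05 (adjusted p = 0.565), and 1.99e-05 after quantile normalization. The other Acot6 probe set ranged from 7.312887 to 7.313009 and that of Acot5, a peroxisomal enzyme for medium-chain acyl-CoA, from 6.684938 to 6.684967. In the fit without the filter neither was called in MSM or either chromosome 12 strain against B6 (adjusted p = 0.0553 for MSM minus B6 in Acot6, limma).

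In the 26 strains that carry MSM chromosomes other than 12, limma called 0 of the 5 members against B6 in any strain, over a total of 505154 tests on all probe sets of which 0.386% were called. 13 of the 130 member tests had an unadjusted p below 0.05, against 8.4% of the tests on all probe sets. 11 of them were in Acot6, all lower than B6, and share the B6 males, which themselves lay 2.45e-05 ± 9.16e-06 above the other strains (unadjusted p = 0.0120, limma). Against the mean of the other strains 3 Acot6 tests had an unadjusted p below 0.05. When the mean of the other strains without MSM chromosome 12 was the reference, the call of Acot3 in B6-Chr7TMSM was the only 1, where 0.782% of all such tests were called.

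Along chromosome 12, 701 probe sets of 403 genes were tested, and the cluster took places 225 to 229 in their order. Calls in B6-Chr12CMSM against B6 ran from Dtnb at place 6 to Vcpkmt at place 147, and calls in B6-Chr12TMSM ran from 9330151L19Rik at place 143 to Cyp46a1 at place 340. 77 tested genes lay between the last call of the centromeric strain and the first member. All 22 probe sets called in B6-Chr12TMSM were on chromosome 12, and 21 of them were also called in MSM. Of the 15 called in B6-Chr12CMSM, 13 were placed on chromosome 12, all also called in MSM. On this chromosome 2 probe sets were called in both part strains. On the telomeric side of the cluster 14 of 294 probe sets were called in B6-Chr12TMSM and 0 in B6-Chr12CMSM. On the centromeric side 7 of 402 were called in B6-Chr12TMSM and 13 in B6-Chr12CMSM.

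**Figure D4:**
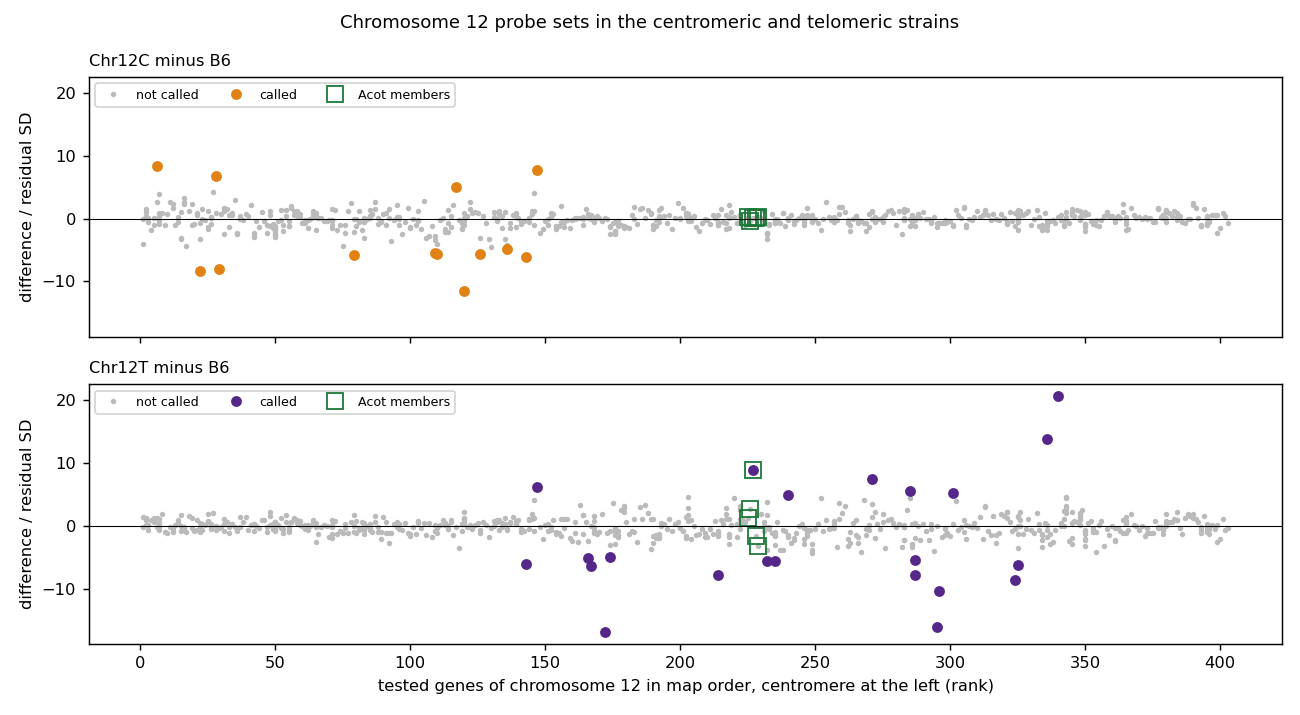
Difference from B6 in units of the residual SD for 701 probe sets of chromosome 12, in map order of the 403 tested genes, in B6-Chr12CMSM (upper panel) and B6-Chr12TMSM (lower panel). Filled coloured points were called at an adjusted p below 0.05, grey points were not, and green squares mark the members at places 225 to 229. Acot4 is the 1 member among the called points, in the lower panel.

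The 10 genes on each side of the cluster held 43 tested probe sets. 2 of them were called in B6-Chr12TMSM against B6, both lower. 1 probe set of Ptgr2, a prostaglandin reductase, fell by 0.000492 ± 0.0000867 (limma, adjusted p = 0.00421), and 1 of Entpd5, a nucleoside diphosphatase of the endoplasmic reticulum, fell by 0.0102 ± 0.0018 (adjusted p = 0.00469). The other 4 probe sets of each of these genes did not pass the test. Those of Ptgr2 differed in direction, at 3.783, 1.717, -0.1529 and -3.898 residual SD. In B6-Chr12CMSM minus B6-Chr12TMSM the first of these was called at -6.101 residual SD (limma, adjusted p = 0.0008483). The second was called there at -4.96 (adjusted p = 0.01572). Both were thus higher in B6-Chr12TMSM, so no single direction can be given for Ptgr2. None of the 43 was called in B6-Chr12CMSM. In units of the residual SD, the differences in B6-Chr12TMSM against B6 were 8.89 for Acot4, -5.63 for the called probe set of Ptgr2 and -5.56 for that of Entpd5.

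The transcripts most like each member in strain means were found by Pearson correlation over the 30 strains. For Acot1 the highest were Slc22a5, the carnitine transporter (0.87), 2 probe sets of the phosphatase subunit Ppp2r2d (0.86 and 0.84), Rab30 (0.81) and Galnt2 (0.80), and over the 27 strains these were 0.76 to 0.87. For Acot2 they were Pdk4, the pyruvate dehydrogenase kinase (0.86), Tnfrsf12a (0.77), the hormone Fgf21 (0.75), Cln3 (0.75) and Zbtb21 (0.74), and over the 27 strains 0.73 to 0.87. For Acot3 they were St3gal6 (0.70), Xist (0.65), Hexa (0.60), Trak1 (0.56) and Cux2 (0.55). Over the 27 strains these were 0.69, 0.69, 0.61, 0.49 and 0.62.

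For Acot4 the likeness was of another kind. All 5 probe sets were of genes on chromosome 12: Papola, the poly(A) polymerase (0.91), Zc3h14 (0.90 and 0.85), Npc2, a lysosomal cholesterol carrier (0.89), and Cyp46a1, cholesterol 24-hydroxylase (0.88). Over the 27 strains without MSM chromosome 12 the same correlations were -0.08, 0.44, 0.32, 0.28 and -0.02, in the order Papola, Zc3h14, Zc3h14, Npc2 and Cyp46a1. For Acot6 the highest were Ankmy2 (0.76), Smpd4 (0.70), Dcst1 (0.69), Kcnk13 (0.68) and Dnajc11 (0.67). Of these, Ankmy2 and Kcnk13 are also on chromosome 12, and over the 27 strains the correlations were 0.55 to 0.68.

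Related genes outside the cluster were described by counts, with 1 probe set per gene. Of 12 tested thioesterases elsewhere in the genome, 2 rose and 4 fell in MSM against B6, with a median of 0.194 residual SD against 0.592 over all genes, of which 24.3% were called, and 50% of the list was. Those that fell were led by Baat, which conjugates bile acids, at -0.00336 ± 0.000354 (limma, -9.4 residual SD), Hibch, a mitochondrial hydrolase, at -0.00634 ± 0.000948 and Acot13, at -0.00609 ± 0.00106. Them4, a mitochondrial thioesterase, rose by 0.000992 ± 0.00024. None of the 12 was called in B6-Chr12CMSM or B6-Chr12TMSM against B6, where 0.0753% and 0.1% of all genes were called.

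Of 15 tested acyl-CoA synthetases, which load fatty acids with coenzyme A, 3 rose and 1 fell in MSM against B6, which is 26.7% called, near the 24.3% of all genes, with a median of 1.68 residual SD. Acsf2 rose by 0.00203 ± 0.000192 (10.5 residual SD), Acsm1 by 0.00527 ± 0.000831 and Slc27a4 by 0.000174 ± 0.0000648, and the bile acid CoA ligase Slc27a5 fell by 0.00224 ± 0.000354. Of 34 tested genes of the PPARA list, 1 rose and 7 fell in MSM, with a median of -0.306 residual SD against 0.592 over all genes. The 23.5% called is close to the 24.3% of all genes, so the count is no result about the list. Vnn1, a pantetheinase, fell by 0.432 ± 0.0495, Decr2, a peroxisomal reductase, by 0.0114 ± 0.0014, the peroxisomal thiolase Acaa1b by 0.0017 ± 0.000219 and the fatty acid hydroxylase Cyp4a14 by 1.73 ± 0.224. The 1 that rose was the transcription factor Creb3l3. After quantile normalization 4 of the 7 that fell were still lower in MSM (Vnn1, Decr2, Cyp4a14 and Cd36), while Acaa1b and Crot had a difference of 0, as did the synthetase Slc27a5, and Slc25a20 was higher. Of the 4 thioesterases that fell, 3 were still lower and Ppt2 was higher, and the genes of these lists that rose were still higher. No synthetase and no gene of the PPARA list was called in B6-Chr12CMSM or B6-Chr12TMSM against B6. With 0.0753% and 0.1% of all genes called there, this is no result about the lists.

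Some markers of other liver cells were called in MSM against B6. The share was 75% of the Kupffer, 66.7% of the endothelium and 33.3% of the stellate list, against 24.3% of all genes. These lists hold few genes, and the stellate share is near that of all genes. 3 of the 4 Kupffer cell genes fell against B6 (Clec4f, Csf1r and Vsig4), and the summed log2 signal of the 4 was 37.30 in both MSM males, 37.37 to 37.38 in B6-Chr12TMSM, 37.36 to 37.38 in B6-Chr12CMSM and 37.36 in both B6 males. Of the 3 endothelial genes Lyve1 rose and Clec4g fell in MSM, with sums of 26.81 in MSM against 26.77 in B6, and of the 3 stellate cell genes Lrat fell. After quantile normalization Clec4g had a difference of 0.0004025 and the other 5 kept their direction. Clec4f was then no longer called (limma, adjusted p = 0.1013). No marker of the 7 lists was called in B6-Chr12CMSM or B6-Chr12TMSM against B6. With 0.0753% and 0.1% of all genes called there, this is no result about the markers. The part of these cells in the MSM values of the members was not tested.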

How the data were processed

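Liver RNA of 60 males (30 strains, 2 males each) was measured on 120 Affymetrix mouse whole-genome arrays, prepared with the GeneChip 3′IVT express kit, per the labels' protocols. The authors deposited 1 value per probe set and array, read here as a log2 signal. The probe summary method, the normalization and the genome build were not given in the sources used here. A base of 2 was taken because values ran from 6.34 to 14.82. This processing left very small deviations between arrays, which differ in scale from probe set to probe set.

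Probe sets were named from the platform annotation (34945 with 1 symbol, 932 with several, 9160 with none), and 34741 matched a gene of the RefSeq table of GRCm38.p6, which gave chromosome and gene order. Both arrays of each male were averaged. With limma 3.58.1 (R 4.3.3), 1 mean per strain was fitted to 19429 probe sets, those with at least 2 of 60 males above the median, with 30 residual and 0.579 prior degrees of freedom. Calls were made at an adjusted p below 0.05, by Benjamini-Hochberg over all tested probe sets of a comparison; every adjusted p in the text comes from this limma fit or a named alternative. Intervals are 95% t intervals. On simulated data for B6-Chr12TMSM against B6 over 19429 probe sets, 84 of 100 changes of 5 residual SD and 100 of 100 changes of 10 were recovered, with 9 false calls among the unchanged probe sets.

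All member probe sets were named. Neighbours were the 10 genes on each side with a tested probe set, like transcripts the 5 highest correlations, and list genes the 4 called with the largest differences in residual SD. A strain outside chromosome 12 was to be named for a member called against both B6 and the other strains, which none was. The members and lists were chosen with earlier results of these data known. Promoter sequences are RefSeq's; where 2 starts were listed, the first was used. The alternatives were the reference, quantile normalization, the filter, 1 probe set per gene, arrays with the male as a random block, 4 strains only, robust trended moderation, single arrays and single males left out. A fit over probe sets of any annotation was added after seeing the data.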

Additional observations from a re-analysis of the deposited data

Results flagged for a closer look

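The difference of Acot4 between the part strains of chromosome 12 stood out. Against B6, Acot4 was not called with the centromeric part of MSM chromosome 12 and was called higher with the telomeric part. B6-Chr12CMSM minus B6-Chr12TMSM was -0.0339 on the deposited log2 scale (limma, adjusted p = 1.27e-06), with both B6-Chr12CMSM males below both B6-Chr12TMSM males. The probe set shared by Acot2 and Acot1, which is outside the tested set because it carries 2 gene symbols, was higher in MSM than in B6 by 0.0336 (limma over all annotations, adjusted p = 0.0246). The Acot2 probe set 1422996_at, which lies below the filter on low signal, was higher in MSM than in B6 by 0.00029 (limma without the filter, adjusted p = 0.0178).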

How the results depend on the processing

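Acot4 kept its direction and its call in MSM against B6 under every alternative run, with differences of 0.0230 to 0.0305. In B6-Chr12TMSM against B6 (0.0310 to 0.0369) and in B6-Chr12CMSM against B6-Chr12TMSM (-0.0359 to -0.0320) it lost the call only with 4 strains in the fit, which has fewer residual degrees of freedom, and there the count of members called was 0 in both. No difference changed sign past the threshold. The count called in MSM against B6 was 1 (23.4% of all probe sets), and it was 3 against the 27 strains (42%). It was 3 after quantile normalization, where 84.7% of all probe sets were called, so that 3 of 5 is below the share of all. The count was 2 without the filter (17.9% of all) and 2 with the male as a random block (26.1% of all), and it varied with the male left out. The additions were Acot1 and Acot6 against the 27 strains and after quantile normalization, where Acot6 reached 0.00073. The weaker Acot2 probe set was added without the filter, and Acot1 with the block. Acot1 was also added without MSM male 1, which left MSM as its higher male alone. The fit with the male as a random block sets 1 array correlation of 0.307 for all probe sets. For the tested probe sets of Acot1 to Acot4 the arrays of a male were more alike than that, so it calls them too readily. It called 2 members in B6-Chr12TMSM against B6 (0.293% of all probe sets, against 0.113%) and 2 between the part strains (0.381%, against 0.196%). It also called 2 in MSM against B6-Chr12TMSM (24.3%, against 21.9%). In the strains without MSM chromosome 12 it called 2 (Acot2 in B6-Chr7MSM, Acot3 in B6-Chr7TMSM). MSM against B6-Chr12CMSM had 2 calls (22% of all probe sets), 1 with 4 strains (21.1%) and 1 with the first arrays alone (13.5%), and the count varied with the male left out. MSM against B6-Chr12TMSM had 1 (21.9%), and 0 with the first arrays alone (12.9%). The strains without MSM chromosome 12 had 0 calls against B6 and 1 against the other strains. Leaving out B6-Chr7TMSM male 2 left that strain as 1 male, the highest of the panel for Acot3, at 0.0516 above B6. Leaving out B6-Chr7MSM male 1 left that strain as 1 male, the highest of the panel for Acot2, at 0.0189 above B6. A strain of 1 extreme male gives no further evidence. With B6-Chr7TMSM male 1 or male 2 left out, Acot6 was called in B6-Chr15MSM against B6, at -5.27e-05. The 2 neighbours called in B6-Chr12TMSM (0.113% of all probe sets) became 0 after quantile normalization (0.0566%), 0 with 1 probe set per gene (0.1%) and 4 with the block (0.293%). They became 0 with 4 strains (0.0309%), 0 with the first arrays (0.0463%) and 1 with the second arrays alone (0.211%). The number varied with the male left out. Where no construction of the alternative shows it, the cause was not tested. No paired analysis was possible because the male numbers are only names. Signal near the median of the array, as for Acot6, limits what can be seen.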
